A study of Mus musculus with 4 samples.

Results

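The genes described here encode the bone morphogenetic protein (BMP) and transforming growth factor beta (TGF-beta) signalling pathway of the mouse small intestine. The set was fixed by name as 46 ligands, receptors, Smad proteins, inhibitors and Id target genes, and 43 of them were measured among 12393 genes. Gdf15, Smurf1 and Smurf2 were not analysed here. The brightest probe set, by its mean over the 4 arrays, stood for a gene that had several. Expression was compared between Lgr5(hi) stem cells, isolated from wild-type animals by flow sorting, and differentiated villus cells, released with EDTA from the epithelium of conditional Atoh1 knockout animals and called enterocytes by the submitters. Each group had 2 arrays, labelled as biological replicates. All mice were of the C57BL/6 strain and aged 4 to 6 weeks, and the tissue was the proximal intestinal epithelium. Tamoxifen, given at 1 mg per day over 5 days and followed by 5 days without it, is stated for every sample, the wild-type ones included. Atoh1 is the transcription factor that secretory cells of the gut need, so its loss is meant to leave a villus of enterocytes. Not given in the sources used here are the Cre driver, the number of animals behind each array and any pooling of animals. The p-values therefore measure the spread between these arrays. Cell type, Atoh1 genotype and isolation method changed together, and their parts in a difference cannot be told apart.

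BMP and TGF-beta ligands are secreted dimers that bind a complex of type I and type II receptor kinases. The type I receptor phosphorylates receptor-activated Smads (Smad1 and Smad5 for BMPs, Smad2 and Smad3 for TGF-beta and activins), which join Smad4 and enter the nucleus. In the intestine, BMP signalling is known to be stronger in the villus than in the crypt, where secreted antagonists hold it down and stem cells renew. TGF-beta is known to restrain epithelial proliferation. The pathway switches on its own brakes, among them Smad6, Smad7, Bambi and Skil, and the Id genes are its textbook BMP targets.

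Promoter sequence is shown for 4 genes, the Id genes listed below, which share a family but differed in direction, and Tgfbi, the gene with the largest difference of the set. Each line gives the 250 bases before the RefSeq start of the gene (build GRCm38.p6), 5′ to 3′ on the gene's own strand. Capitals mark the Smad box CAGAC, which on the opposite strand reads as GTCTG and is the core bound by Smad3 and Smad4, and the GC element GGCGCC, the same on both strands, of the kind bound by Smad1 and Smad5. Tgfbi lies at chr13:56609336-56609585 on the plus strand, Id2 at chr12:25096093-25096342 on the minus strand, Id3 at chr4:136143572-136143821 on the plus strand and Id4 at chr13:48260866-48261115 on the plus strand.
Tgfbi: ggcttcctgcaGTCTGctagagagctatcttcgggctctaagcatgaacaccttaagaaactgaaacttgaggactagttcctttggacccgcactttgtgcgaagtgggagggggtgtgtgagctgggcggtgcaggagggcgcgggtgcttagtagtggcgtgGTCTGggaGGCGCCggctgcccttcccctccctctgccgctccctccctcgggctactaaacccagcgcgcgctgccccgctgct
Id2: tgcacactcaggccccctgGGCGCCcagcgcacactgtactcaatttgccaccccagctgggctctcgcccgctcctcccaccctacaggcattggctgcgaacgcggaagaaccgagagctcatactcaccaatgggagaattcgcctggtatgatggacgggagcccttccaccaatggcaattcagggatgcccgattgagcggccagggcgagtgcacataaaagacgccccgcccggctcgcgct
Id3: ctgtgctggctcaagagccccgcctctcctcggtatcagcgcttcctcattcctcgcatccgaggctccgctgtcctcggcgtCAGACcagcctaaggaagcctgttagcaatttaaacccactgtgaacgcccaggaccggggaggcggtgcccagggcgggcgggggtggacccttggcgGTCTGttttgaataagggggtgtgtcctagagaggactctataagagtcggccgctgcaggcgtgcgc
Id4: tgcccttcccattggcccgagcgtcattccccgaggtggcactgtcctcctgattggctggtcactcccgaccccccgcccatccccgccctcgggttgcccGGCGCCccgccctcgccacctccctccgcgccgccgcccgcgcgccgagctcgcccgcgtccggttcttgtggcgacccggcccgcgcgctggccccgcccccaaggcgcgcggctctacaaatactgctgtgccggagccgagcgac

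The Smad box began 239 and 85 bases before the start of Tgfbi and 167 and 68 bases before that of Id3. The GC element began 77 bases before the start of Tgfbi, 231 before that of Id2 and 148 before that of Id4, so the gene that rose most and the Id gene that fell both had one. Promoter entries matched 29 of the 43 members, with 39 start sites. Of the 39 start sites, some of which belong to the same gene, 19 (48.7%) held the Smad box and 8 (20.5%) the GC element. Among all 32851 RefSeq promoters of this length 42.2% held the Smad box and 9.59% the GC element. A match describes these letters and does not show a bound site.

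The largest rises in enterocytes were in a matrix protein, in ligands and in feedback inhibitors, and the largest falls were in an activin receptor, an Id gene and a corepressor. By limma at an adjusted p under 0.05, 14 of the 43 members were higher in enterocytes and 5 were lower. Over all genes 40.6% passed, 18.2% as higher and 22.4% as lower, so the members passed about as often as other genes did. With a difference of at least 2-fold as well, 10 members passed, against 24.5% of all genes. These were Tgfbi, Bmp8a, Bmp2, Skil, Smad7 and Id3 among the higher and Acvr2b, Id4, Tgif1 and Bambi among the lower. The groups of arrays did not overlap in 26 members, against 65.3% of all genes. The median log2 difference was 0.17 over the members and -0.0026 over all genes. In whole samples such as these, fewer cells that express a gene and less RNA per cell cannot be told apart.

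Some values bear on all of these results. A background level was set from 26 genes of other organs at log2 5.54, and 12 members lay below it in both groups. Centring set the arrays to the same median level of 9 reference genes, of which 3 were higher and 1 lower themselves. On every array this median was the level of Sdha, at 12.27 and 11.86 in stem and 12.69 and 12.68 in enterocyte arrays. The median difference over the 9 genes was 0.31, and that of Sdha was 0.62. Centring also moved the stem arrays against each other, so calls under it reflect changed errors as well as the shift. It moved every difference by -0.62 and left 5 members higher and 19 lower. Over all genes the split then changed from 2257 higher and 2779 lower to 1148 and 6700. Without stem replicate 1 or without stem replicate 2 no gene passed by limma (4675 and 4817 at an unadjusted p under 0.05, 14 and 15 of them members). Without enterocyte replicate 1, 8 members were called higher and 1 lower, and without enterocyte replicate 2 the counts were 6 and 1. The 19 called members kept their direction in each of these 4 settings. Control probe sets, 64 in all, differed between the groups by between -2.55 and 2.90 (log2), and the part of this in the gene differences was not tested.

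The labels were checked on marker genes. Atoh1, the deleted gene, was at 7.43 and 7.71 (log2) in stem and at 5.06 and 5.28, below background, in the enterocyte arrays. The extent of the deletion in Atoh1 is not stated, so where the probe set lies relative to it is unknown. Lgr5, the gene that marks the sorted stem cells, was at 11.33 and 10.96 in stem and 6.92 and 6.09 in enterocyte arrays. Of 8 measured stem cell markers 8 were lower in enterocytes, and of 12 enterocyte markers 12 were higher. Lymphocyte markers also moved with the groups: 11 of 12 were higher in enterocytes, and their summed intensity was 682.1 and 948.6 in stem and 8877 and 11930 in the enterocyte arrays. Tuft cell markers rose too, 6 of 7, from a summed 709.5 and 519.8 to 3967 and 2703, with Dclk1 and Alox5ap at 3.64 and 3.16 (log2 difference). Myeloid markers went both ways, with 2 higher and 2 lower of 11, summed at 2179 and 3054 against 703.9 and 692.7. The stem sums rest largely on Lyz2, at 10.39 and 11.10 (log2) in stem and 5.12 and 7.03 in enterocyte arrays. Markers of goblet, Paneth and enteroendocrine cells were lower in enterocytes. The summed goblet cell markers (7 of 7 lower) were 35920 and 42110 in stem and 647.6 and 1196 in the enterocyte arrays, the Paneth cell markers (2 of 4 lower) 34450 and 47210 against 663 and 6070, and the enteroendocrine markers (7 of 9 lower) 8813 and 11390 against 850.6 and 766.1. The part of these cells in the differences below was not tested. Mesenchymal and endothelial cells, which make many ligands and antagonists of this pathway, were read from their own markers. Their summed intensities were between 704.1 and 846.7 and between 367.1 and 535.5 over the arrays, and 10 of 16 and 7 of 10 markers lay below background in both groups, Pdgfra, Col3a1, Cdh5 and Pecam1 among them. By limma 0 of the 16 mesenchymal markers were higher (3 at an unadjusted p under 0.05) and Vim was lower.

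**Figure D1:**
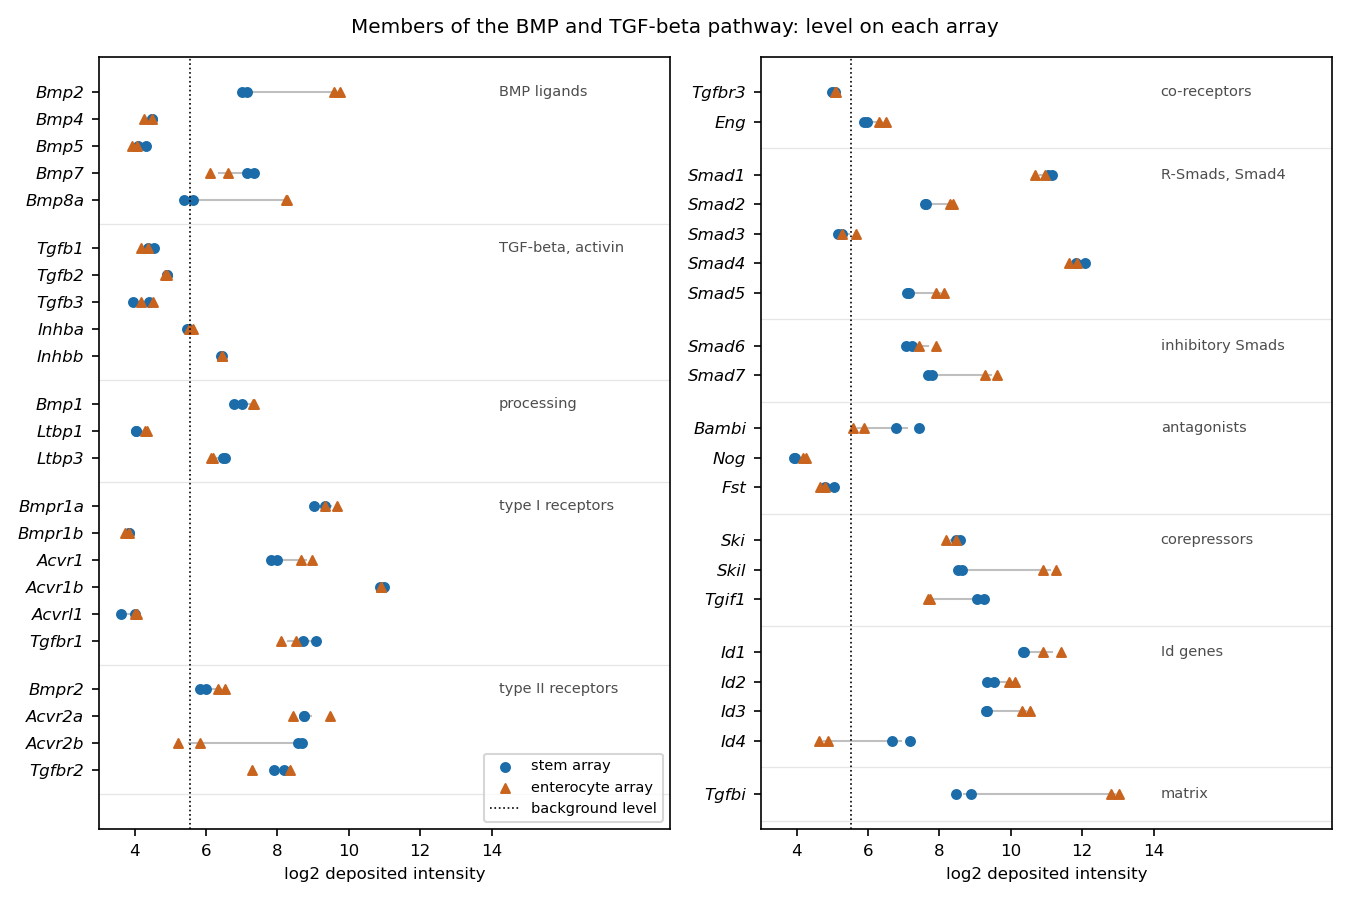
Level of each of the 43 measured members on each array, as log2 of the deposited intensity (horizontal axis), grouped by role; circles are the 2 stem arrays, triangles the 2 enterocyte arrays, grey lines join the group means and the dotted line is the background level of 5.54. Tgfbi, Bmp2, Bmp8a, Skil and Smad7 lie well to the right in enterocytes and Acvr2b, Id4, Tgif1 and Bambi to the left, while the ligands Bmp4, Bmp5, Tgfb1, Tgfb2 and Tgfb3 lie below background on every array; positions of different genes on the axis are not comparable, since each has its own probe set.

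Among BMP-branch ligands, Bmp2 and Bmp8a were higher in enterocytes and the other 3 measured ligands did not pass. Bmp2, a ligand with a long-known part in gut differentiation, had log2 levels of 7.14 and 7.02 in stem and 9.58 and 9.76 in enterocyte arrays. Both enterocyte arrays were above both stem arrays by far more than either pair differed. The log2 difference was 2.59 ± 0.10 (SE, n = 2 arrays per group), a 6.02-fold rise (adjusted p = 0.00285 by limma), and it stayed called, at 1.97, under reference gene centring.

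Bmp8a, a less studied ligand of the same family, was at 5.63 and 5.37 in stem and at 8.25 and 8.26 in the enterocyte arrays. The mean of the stem arrays was thus below background. It was at least 6.35-fold higher in enterocytes (difference 2.75 ± 0.12 SE, adjusted p = 0.00308 by limma; 2.13 under reference gene centring). Its near-identical neighbour Bmp8b was at 4.59 and 4.91 in stem and 5.62 and 5.29 in enterocyte arrays (0.71, adjusted p = 0.07). How far the probe sets of this gene pair share signal was not tested.

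Bmp7 showed the opposite order: 7.35 and 7.15 in stem and 6.62 and 6.10 in the enterocyte arrays. The groups did not overlap, but the difference of -0.89 (95% interval -1.58 to -0.20) had an adjusted p of 0.0593 by limma. It passed the threshold, as lower, in 6 of 11 alternative settings, and its other probe sets gave -0.06 and -0.17. Bmp4, the ligand of the villus mesenchyme, was at 4.48 on both stem arrays and at 4.27 and 4.48 on the enterocyte arrays. Bmp5 lay between 3.92 and 4.33. Both genes were thus below background on all 4 arrays, and no statement about their change can be made.

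None of the 5 TGF-beta and activin ligand genes passed the threshold by limma, and 0 had an unadjusted p under 0.05, though under reference gene centring Tgfb1, Tgfb2 and Inhbb were called lower. Tgfb1, Tgfb2 and Tgfb3 lay between 3.95 and 4.91 on all arrays, below background. Inhba, which encodes the subunit of activin A, lay at the background level, between 5.46 and 5.65. Inhbb, the subunit of activin B, was above it, at 6.43 and 6.44 in stem and 6.44 and 6.44 in enterocyte arrays. The difference was 0.0039, with a 95% interval of -0.15 to 0.16. Stem replicate 2 and both enterocyte arrays held the identical value, which lowers the spread seen. The narrow interval therefore does not show that Inhbb was unchanged. The other probe set of Inhbb, below background, gave 0.09.

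Genes that process or store the ligands differed little. Bmp1, a metalloprotease that frees BMPs from their antagonist chordin, was at 6.79 and 7.02 in stem and at 7.32 and 7.33 in enterocyte arrays (0.42, adjusted p = 0.0564 by limma). Ltbp3, a latent TGF-beta binding protein, fell by 0.33 on the log2 scale (adjusted p = 0.0288), from 6.48 and 6.53 to 6.21 and 6.15, and had 0.22 on its dimmer probe set. Ltbp1, of the same family, was called higher (0.28, adjusted p = 0.0365), but at 4.04 to 4.36 it was below background in every array.

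The activin receptor gene Acvr2b had the largest fall of the set. This type II receptor binds activins, myostatin-like ligands and several BMPs. It was at 8.57 and 8.69 in stem and at 5.83 and 5.22 in the enterocyte arrays. The enterocyte mean was just below background, and the gene was at least 7.69-fold lower there (difference -3.10 ± 0.25 SE, adjusted p = 0.00611 by limma). The call held in all 11 alternative settings other than those that left out an array. Its close relative Acvr2a, which binds an overlapping set of ligands, was at 8.75 and 8.75 in stem and at 8.43 and 9.48 in enterocyte arrays. The enterocyte arrays lay on either side of the stem arrays, and the difference of 0.20 had an interval of -1.07 to 1.47. The other probe set of Acvr2a, at 7.24 and 7.23 in stem and 7.93 and 8.30 in enterocyte arrays, gave 0.88. With the dimmest probe set per gene, Acvr2a was called higher (adjusted p = 0.0374 by limma).

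Acvr2b was the only type II receptor called lower in the main comparison. Bmpr2, the BMP type II receptor, was higher, at 5.83 and 6.01 in stem and 6.52 and 6.34 in enterocyte arrays (0.51 ± 0.11 SE, adjusted p = 0.0412 by limma), but turned to -0.11 under reference gene centring. Tgfbr2, the TGF-beta type II receptor, was at 8.18 and 7.91 in stem and 7.29 and 8.34 in enterocyte arrays. Its enterocyte arrays differed by 1.05, as those of Acvr2a did, the widest gaps between replicates among the members. Its difference of -0.23 therefore had an interval of -1.55 to 1.09. Under reference gene centring Tgfbr2 was called lower, at -0.85.

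Of 6 type I receptors, Acvr1 passed the threshold. Acvr1, also known as ALK2, a receptor for BMPs, rose from 7.99 and 7.81 to 8.96 and 8.67 (0.91 ± 0.14 SE, adjusted p = 0.0205 by limma), with 0.29 and no call under reference gene centring. Its other probe sets gave 1.21 and 0.06, the latter with a mean below background. Acvr1 also lost its call with the dimmest probe set per gene and with dim values raised to background. Bmpr1a, the main BMP type I receptor of the intestinal epithelium, was at 9.33 and 9.01 in stem and at 9.33 and 9.66 in enterocyte arrays on its brightest probe set (0.33, interval -0.25 to 0.90, adjusted p = 0.288), so the groups met. Its other 4 probe sets gave 1.13, 1.71, 1.60 and -0.59. The mean over its probe sets was 0.84 (adjusted p = 0.00363 by limma). The direction for Bmpr1a therefore depended on the probe set.

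The TGF-beta type I receptor gene Tgfbr1 was at 9.08 and 8.73 in stem and 8.09 and 8.52 in enterocyte arrays, lower in both enterocyte arrays without passing the test (-0.60, adjusted p = 0.133). Acvr1b, the activin type I receptor, was at 10.99 and 10.86 against 10.89 and 10.89 (-0.035, interval -0.25 to 0.18). Its enterocyte arrays held the identical value, which lowers the spread seen. The interval therefore does not show that Acvr1b was unchanged. Under reference gene centring both Tgfbr1 and Acvr1b were called lower, at -1.22 and -0.65. Bmpr1b and Acvrl1 lay below background on all arrays, between 3.62 and 4.07. Acvrl1 works mainly in endothelium.

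The co-receptor Eng, best known from endothelium, rose from 5.89 and 5.98 to 6.49 and 6.31 (0.47 ± 0.09 SE, adjusted p = 0.0353 by limma), close to background. Its other probe set gave 0.0028, and under reference gene centring it turned to -0.15. Of the 10 endothelial markers 7 were below background in both groups, 0 were called higher and 1, Esam, was called lower. The part of endothelial cells in the Eng difference was not tested. Tgfbr3, betaglycan, was below background, between 5.00 and 5.10.

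**Figure D2:**
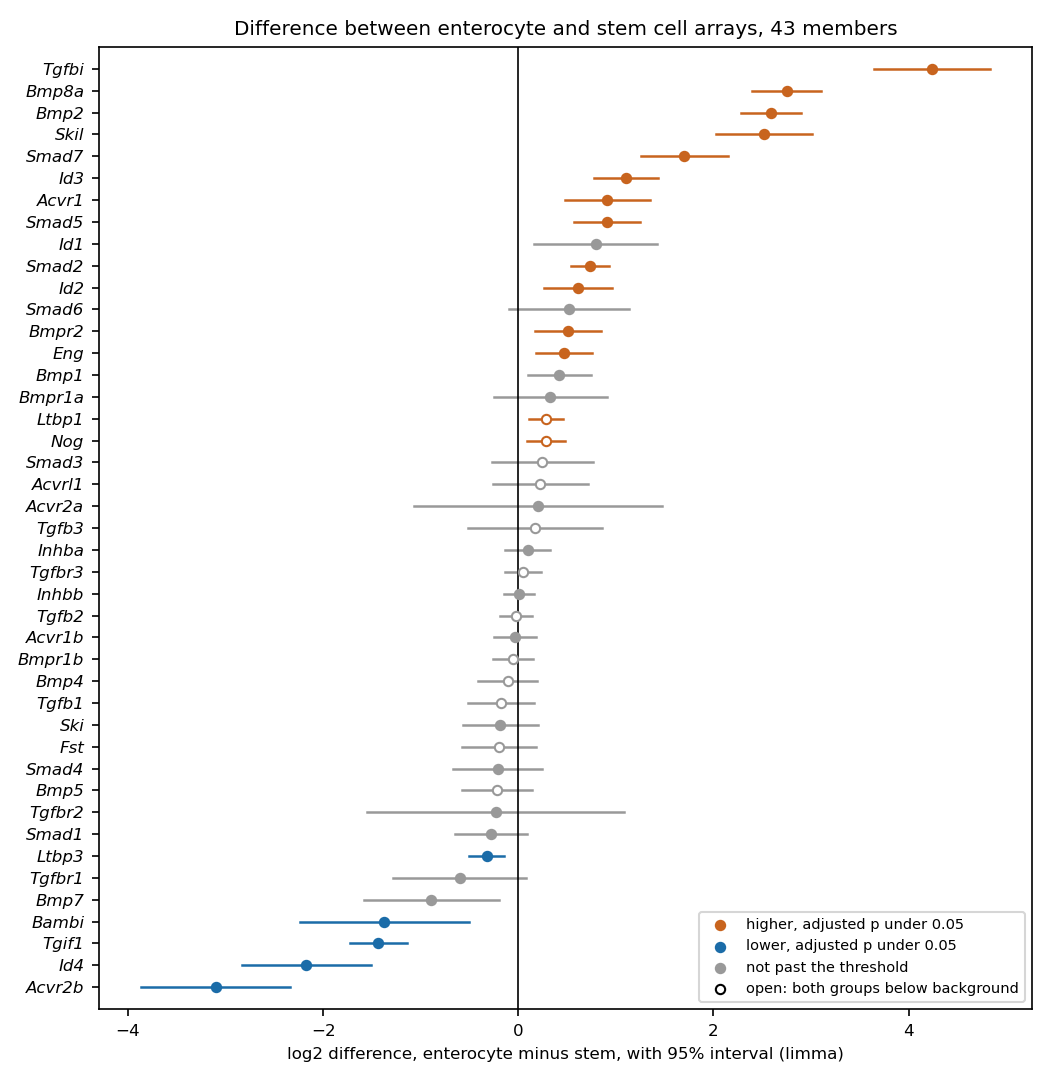
Log2 difference (enterocyte minus stem, horizontal axis) of each of the 43 members with its 95% interval from limma, sorted; orange marks the 14 called higher, blue the 5 called lower, grey the rest, and open points the 12 members below background in both groups. Tgfbi stands apart at 4.24 and Acvr2b lies at the other end at -3.10, and 22 of the 43 members have intervals that exclude 0 before adjustment.

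Among the Smad genes, Smad5 and Smad2 were higher in enterocytes and the other 3 did not pass. Smad5, which carries BMP signals, was at 7.15 and 7.08 in stem and at 7.90 and 8.14 in enterocyte arrays (0.91 ± 0.11 SE, 1.88-fold, adjusted p = 0.0121 by limma), with 0.61 on its other probe set. Smad2, which carries TGF-beta and activin signals, rose from 7.62 and 7.59 to 8.38 and 8.29 (0.73 ± 0.06 SE, 1.66-fold, adjusted p = 0.00682). Neither rise was called under reference gene centring, at 0.29 and 0.12.

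Smad1, which carries BMP signals as Smad5 does, was at 11.14 and 11.05 in stem and 10.95 and 10.69 in enterocyte arrays (-0.28, interval -0.65 to 0.09, adjusted p = 0.181). Smad3 was close to or below background, at 5.16 and 5.26 against 5.66 and 5.26. Smad4, the partner of all receptor-activated Smads, was at 12.09 and 11.82 in stem and 11.86 and 11.63 in enterocyte arrays (-0.21, interval -0.67 to 0.25, adjusted p = 0.359). Its 3 probe sets did not agree: a probe set nearly as bright gave 12.63 and 12.62 in stem against 10.92 and 10.86 in enterocyte arrays (-1.73), and the dimmest gave 0.18. With the mean over probe sets Smad4 was called lower, at -0.59 (adjusted p = 0.012 by limma).

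The inhibitory Smad gene Smad7 rose clearly. Smad7, which blocks type I receptors of both branches and is itself induced by their signals, was at 7.70 and 7.80 in stem and at 9.62 and 9.29 in enterocyte arrays. Both enterocyte arrays were more than 1 log2 unit above both stem arrays (1.70 ± 0.15 SE, 3.25-fold, adjusted p = 0.00664 by limma; 1.08 and still called under reference gene centring). Smad6, which acts mainly on BMP receptors, was at 7.24 and 7.07 in stem and 7.91 and 7.44 in enterocyte arrays. Its groups did not overlap, but the difference of 0.52 had an interval of -0.09 to 1.13 (adjusted p = 0.144).

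Nuclear corepressors of Smads went both ways. Skil, also called SnoN, a corepressor that TGF-beta signals first degrade and then induce, was at 8.62 and 8.51 in stem and at 10.90 and 11.27 in enterocyte arrays. It rose 5.73-fold (2.52 ± 0.16 SE, adjusted p = 0.00451 by limma), with 1.40 on its other probe set and 1.90 under reference gene centring. Its relative Ski was at 8.48 and 8.57 in stem and 8.48 and 8.20 in enterocyte arrays (-0.18, interval -0.57 to 0.20). Tgif1, a homeobox corepressor of Smad2 and Smad3, fell from 9.24 and 9.05 to 7.67 and 7.75, a 2.70-fold fall (-1.43 ± 0.10 SE, adjusted p = 0.00473).

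Among antagonists outside the nucleus, Bambi fell. Bambi, a decoy receptor without a kinase that is known both as a BMP target and as a target of Wnt signalling, was at 6.79 and 7.42 in stem and at 5.58 and 5.88 in enterocyte arrays, close to background in the latter. The fall was 2.59-fold (-1.37 ± 0.28 SE, adjusted p = 0.0373 by limma), and it was not called with dim values raised to background. Bambi had 1 probe set. In the setting with the dimmest probe set per gene its difference was thus the same, but its adjusted p of 0.053 by limma missed the threshold. The secreted antagonists Nog and Fst lay below background in both groups, at 3.93 to 4.27 and 4.66 to 5.05. Nog was called higher at 0.28 (adjusted p = 0.0467), between levels at which the arrays do not measure a gene.

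The Id genes, which encode inhibitors of basic helix-loop-helix transcription factors, split. Id3 was at 9.34 and 9.32 in stem and at 10.55 and 10.32 in enterocyte arrays, a 2.15-fold rise (1.10 ± 0.11 SE, adjusted p = 0.00795 by limma). Id1 was at 10.36 on both stem arrays and at 11.41 and 10.90 on the enterocyte arrays. Both enterocyte arrays were higher, but their gap of 0.51 widened the error (0.79, interval 0.16 to 1.43), and the adjusted p of 0.0631 missed the threshold.

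Id2 was at 9.33 and 9.53 in stem and at 10.12 and 9.97 in enterocyte arrays on its brightest probe set (0.61 ± 0.11 SE, adjusted p = 0.0294 by limma). Its other probe sets gave 0.11 and -0.86, so the call for Id2 rests on 1 of 3 probe sets. Under reference gene centring, which also changed the errors, Id3, Id1 and Id2 stood at 0.49, 0.18 and -0.0031, none of them called.

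Id4 went the other way under every scaling. It was at 6.69 and 7.17 in stem and at 4.88 and 4.64 in enterocyte arrays, below background in the latter, and was at least 2.62-fold lower (-2.17 ± 0.22 SE, adjusted p = 0.0086 by limma; -2.79 under reference gene centring). Its other probe sets gave -2.01 and -0.78, both with means below background. The call was lost with the dimmest probe set or with dim values raised to background.

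Tgfbi had the largest difference of the set. It encodes a secreted adhesion protein of the extracellular matrix that was first found as a gene induced by TGF-beta. Its log2 levels were 8.89 and 8.47 in stem and 13.03 and 12.81 in the enterocyte arrays. All enterocyte values lay about 4 log2 units above the stem values, and the rise was 18.9-fold (4.24 ± 0.19 SE, adjusted p = 0.00326 by limma). Its 4 probe sets agreed in direction, at 4.24, 3.63, 3.31 and 4.43, and it was at 3.62 under reference gene centring.

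**Figure D3:**
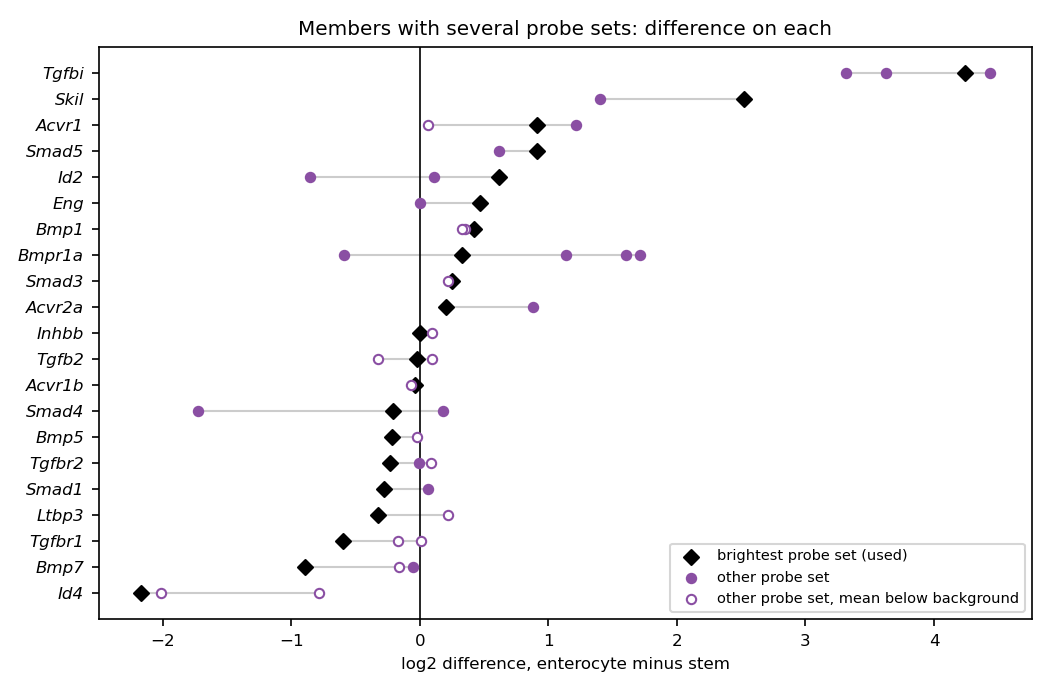
Log2 difference (enterocyte minus stem, horizontal axis) on every probe set of the 21 members that have several; black diamonds are the brightest probe set, used elsewhere, purple circles the others, and open circles those with a mean below background. The probe sets of Tgfbi, Skil and Id4 lie on 1 side of 0, and those of Bmpr1a, Smad4 and Id2 lie on both sides.

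Probe sets thus bear on how firmly a member can be called. Of the 43 members 21 had several, and in 8 of these a probe set pointed away from the brightest one. Of the 19 called members, 7 kept their call in each of the alternative settings that could be run for them, leaving aside those without an array. These were Bmp2, Bmp8a, Acvr2b, Smad7, Skil, Tgif1 and Tgfbi. Tgif1 had no value in the setting without probe sets that may cross-hybridise. By size, the other 12 called members ran from 0.28 (Nog and Ltbp1) to -2.17 (Id4).

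The rest of the pathway was read from a list of further ligands, receptors, antagonists, cofactors and targets, of which 106 of 127 were measured. In these, 16 genes were higher and 15 lower, 29.2% against the 40.6% of all genes, with a median difference of 0.02. Further ligands and receptors did not pass (0 of 15 ligands and 0 of 5 receptors by limma, 1 and 0 of them at an unadjusted p under 0.05), and 10 and 3 of them were below background in both groups. The 13 further antagonists and carriers gave 1 call. Fstl1, a secreted follistatin-like protein, was at 9.23 and 8.82 in stem and at 5.42 and 4.63 in enterocyte arrays, at least 11.2-fold lower (-4.00 ± 0.35 SE, adjusted p = 0.00698 by limma). The crypt antagonist Grem1 was below background, between 5.03 and 5.32.

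Activators of latent ligands and proteases gave 4 higher and 1 lower of 11. Pcsk6, Pcsk5 and Furin encode proprotein convertases, which cleave ligand precursors. Pcsk6 rose from 6.45 and 6.77 to 9.92 and 9.14 (2.92 ± 0.33 SE, adjusted p = 0.011 by limma), and Pcsk5 by 1.51. The integrin subunit gene Itgav, whose product helps to activate latent TGF-beta, rose by 1.54, and the membrane protease gene Mmp14 fell by 1.56 on the log2 scale.

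Target genes gave 6 higher and 3 lower of 24. Fn1, the gene of the matrix protein fibronectin, was at 4.98 and 5.43 in stem and at 10.96 and 10.81 in enterocyte arrays, at least 40.7-fold higher (5.68 ± 0.20 SE, adjusted p = 0.00265 by limma). Mesenchymal cells also make fibronectin. Of their 16 markers 0 were called higher and 1, Vim, was called lower (-2.26, adjusted p = 0.00874 by limma). Acta2, Dcn and Des had differences of 0.90, 0.49 and 0.28 that did not pass, and Col1a1, Col1a2 and Col3a1 were below background. The part of mesenchymal cells in the Fn1 rise was not tested. Cdkn2b, which encodes the cell cycle inhibitor p15 and is a direct TGF-beta target, rose by 3.84, from 6.55 and 6.17 to 10.20 and 10.20. Cdkn1a, which encodes p21, rose by 2.22, from 9.88 and 9.83 to 12.15 and 12.01. The targets Hey1 and Atoh8 fell by 0.74 and 0.40 on the log2 scale, and Dact1, below background in enterocytes, was at least 1.35-fold lower.

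**Figure D4:**
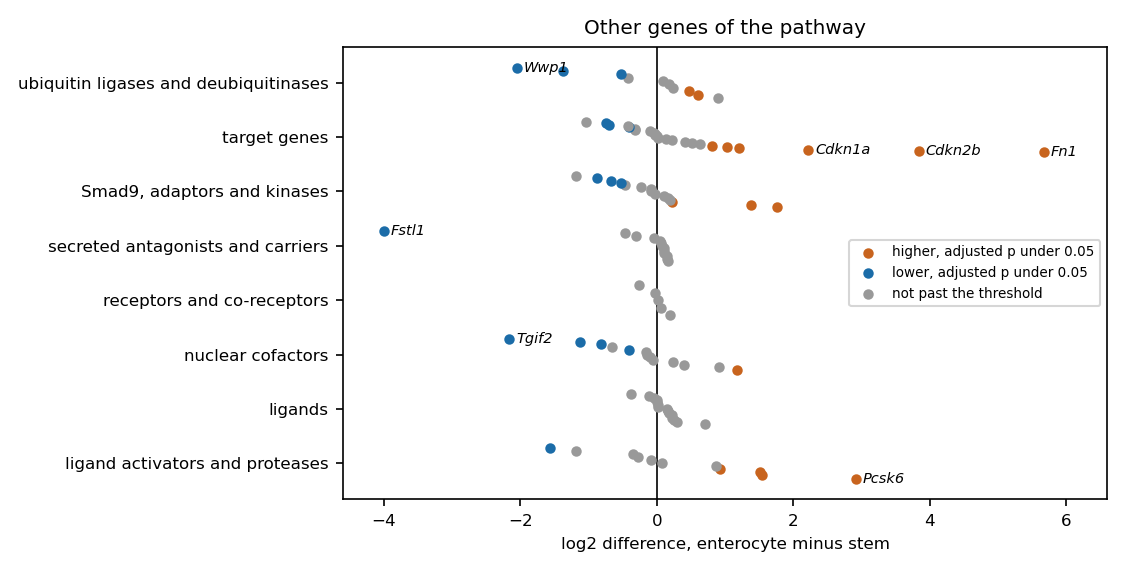
Log2 difference (enterocyte minus stem, horizontal axis) of the 106 other pathway genes measured, 1 point per gene, in rows by role; orange marks the 16 called higher and blue the 15 called lower. The ligand and receptor rows hold no call, and Fn1, Cdkn2b, Pcsk6 and Fstl1 lie farthest from 0.

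Inside the cell, nuclear cofactors gave 1 higher and 4 lower of 13. Tgif2, the relative of Tgif1, was at 8.79 and 8.82 in stem and 6.89 and 6.39 in enterocyte arrays (-2.17 ± 0.20 SE, adjusted p = 0.00781 by limma), so both TGIF genes were lower. Snw1, which binds Smads and Ski, and the transcription factor gene Sp1 fell by 1.13 and 0.81, and Tob1, an antiproliferative Smad partner, rose by 1.18. Ubiquitin ligases and deubiquitinases gave 2 higher and 3 lower of 10. Wwp1, a ligase that acts on Smads and the type I receptor, fell by 2.05 (adjusted p = 0.0415), with its enterocyte arrays at 6.78 and 7.84, and Trim33, which acts on Smad4, and Stub1 fell by 1.37 and 0.52. Nedd4l and Rnf111, ligases for Smads and their inhibitors, rose by 0.61 and 0.46 but turned to -0.0079 and -0.15 under reference gene centring.

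Adaptors and kinases gave 3 higher and 3 lower of 15. Xiap, which links BMP receptors to the kinase Tak1, rose by 1.77, and Ppm1a, a phosphatase for Smads, by 1.38. Strap, which binds TGF-beta receptors, rose by 0.23 and turned to -0.39 under reference gene centring. Tab1, an activator of Tak1, the phosphatase gene Ctdsp1 and Eif4enif1 fell by 0.88, 0.67 and 0.53 on the log2 scale.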

How the data were processed

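The samples were 2 arrays of sorted stem cells and 2 of villus cells, from 100 ng of total RNA each, per the labels' protocols. The authors deposited a normalized, linear intensity for each probe set, ranging from 7.93 to 41703.8. RMA, with no version, is the tool named per the submitters' processing notes; its output is usually on a log2 scale, so the linear values had probably been converted. How arrays were scaled to each other was not given in the sources used here.

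Log2 of each intensity was taken, with no pseudocount. Of 22690 probe sets 20380 had exactly 1 gene symbol after control probe sets were left out, 20351 of them matched by identifier to the RefSeq table of GRCm38.p6, used for names and promoter sequence. The brightest probe set stood for each of 12393 genes. The group comparison used limma 3.58.1 (lmFit, then eBayes) under R 4.3.3, two-sided, Benjamini-Hochberg over all genes, at 0.05, with 2 residual and 1.23 prior degrees of freedom. Identical replicate values (1268 genes in stem, 1048 in enterocyte arrays) lower the spread seen. The number of arrays limits the precision. "At least" folds raise each array of the dimmer group to the background level, the 90th percentile over the other-organ genes. The fit was tested on simulated data. No column lacked a sample (0 columns).

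The members and lists were chosen with earlier results of these data known. Array values are printed for members that passed with a difference of at least 1 (log2) and for a fixed list of receptors, Smads, Id genes and ligands; from each further list up to 3 genes per direction are named. Furin, Bmp8b, Grem1, the tuft and mesenchymal markers and the values of other members were added after their values were seen. Alternatives covered centring, quantile normalization, the replicate block, the choice of probe set, dim values, the variance model, array weights and each array left out.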

Additional observations from a re-analysis of the deposited data

How the results depend on the processing

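The counts of called members were 13 higher and 5 lower under quantile normalization, 15 and 5 with a trended robust variance and 14 and 5 with array weights. Reference gene centring rested on the level of Sdha and also changed the errors. It gave 5 higher and 19 lower among members (median -0.44), 8 and 52 among other pathway genes and 1148 and 6700 among all genes. Under it, among members called in either setting, Inhbb, Ltbp1, Bmpr2, Eng, Nog and Id2 changed sign, to -0.61, -0.33, -0.11, -0.15, -0.34 and -0.0031. The brightest-probe-set rule mattered too: with the lowest-mean probe set 2 members were lower and 8 other pathway genes higher, and leaving out probe sets that may cross-hybridise left 3 members lower, of 38 measured. Id2 turned to -0.045 with the mean over probe sets and to -0.86 in both of these settings, and Ltbp3 to 0.22. Raising dim values to background left 8 members higher and 3 lower (median 0), and testing without genes below background gave a median of 0.33. The cause of these shifts was not tested, apart from the fewer genes measured in the settings that drop some.

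The replicate block, with the shared replicate number as a term, gave 9 members higher and 5 lower. The numbers share no stated source, and the deviations of same-numbered arrays correlated at 0.05 across genes, so the block is no pairing. Over the settings that leave out 1 array, with the lone array of a group assumed to vary like the other group, members called ranged from 0 to 8 higher and 0 to 1 lower (median 0.034 to 0.17), other pathway genes from 0 to 4 and 0 to 5, and all genes from 0 to 663 and 0 to 1058.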
